A study of Mus musculus with 41 samples.

Results

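The 43 genes described here encode the machinery of mitosis: the kinases and cyclins that start it, the spindle motors, the kinetochore, the checkpoint, and the proteins that separate and divide the cell. They were taken by symbol from 47480 gene symbols measured in 41 mouse mammary tumors, and each was related to Plk1 tumor by tumor. All 43 were present and passed the filter on low values in every comparison. Tumors were Plk2-/-; p53-/- (28 tumors, here Plk2-null) or p53-/- (13 tumors, here p53-null), so loss of p53 was shared by both groups and the difference was in Plk2. All were on the Balb/c background and untreated, and an age was not used here. They arose from mammary epithelium of the mutant mice that was grafted into the emptied fat pads of normal Balb/c mice. Such tumors were propagated orthotopically in syngeneic hosts, and which of the 41 had been propagated is not given here. PLK2null-732, PLK2null-733, PLK2null-743 and the p53-null T11 are named claudin-low, a mesenchymal tumor subtype low in epithelial junction proteins, and 7 Plk2-null tumors are named as primary tumors. Each tumor gave 1 mRNA library.

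At mitotic entry, cyclin B binds and activates Cdk1 while the kinase Aurora A and its partner Bora switch on Polo-like kinase 1, the product of Plk1. Plk1 then acts at centrosomes, at kinetochores, where the spindle attaches, and at the midzone, where Prc1, Kif20a and Ect2 prepare division. Most of these genes are transcribed late in the cell cycle, and their RNA is abundant only in dividing cells, so in a tumor their level is often read as a mark of how many cells divide. Plk2 belongs to the same kinase family as Plk1 and acts at centriole duplication and in stress responses.

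Values are linear and scaled by the authors so that the upper quartile of a tumor's nonzero values is 1000. The step of the low values implied 29326261 to 70659551 fragments per tumor, at which 3 reads, the limit a count of 0 allows, were worth 1.17 to 2.46 units. Every member lay far above it, the lowest value being 188 reads for Cdc25c. Titles of all 13 p53-null libraries and of no Plk2-null library carry the word ROSEN with a number. The labels do not say what it marks, and whatever it marks cannot be told apart from genotype. Whether tumors share a transplant line is not given in the labels, so p-values measure the spread between these tumors. The most alike libraries were PLK2null-7750 and PLK2null-1984, whose median chi-square per gene was 5.77 against 0.455 for sampling noise, followed by the pairs of each with PLK2null-1986 (6.82 and 7.16), PLK2null-7753 with PLK2null-1987 (8.03) and PLK2null-1985 with PLK2null-1986 (8.22). All exceed sampling noise, but tumors of 1 line would too, and p-values would then be too small. Each tumor is a mixture, in which fewer cells of a type and less RNA per cell cannot be told apart.

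In PLK2null-732, PLK2null-733 and PLK2null-743 all 6 epithelial markers were below all other 25 Plk2-null tumors, with a summed value of 45.7 to 291 against 13539 to 119162. All 6 endothelial markers were above them (165585 to 186496 against 2572 to 78025), and so were all 5 red cell markers (94951 to 351792). All 6 fibroblast markers overlapped those of the other 25. In T11, Epcam was at 81.4 and Cldn3 at 19.9, but the endothelial sum was 6876 and the keratin Krt18 stood at 22508. T11 thus had the name claudin-low, kept here as given, but not the endothelial or Krt18 values of the 3 tumors. The part of these differences in cell content in the results for the 3 tumors was not tested. Adipoq, the defining adipocyte marker, was at 3.58 to 11.9 in the 3 tumors, and their adipocyte sum was Fabp4 alone.

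Promoters of late cell cycle genes often carry a CHR element (TTTGAA) and a CCAAT box (CCAAT), which serve the DREAM, B-Myb and NF-Y complexes. The RefSeq table for GRCm38.p6 held 35 of the 43 members, each from 250 bases before to 50 after the start. On either strand, where the motifs read TTCAAA and ATTGG, 24 of the 35 promoters (68.6%) held TTTGAA against 20.2% of all 27025 symbols in the table. CCAAT was in 27 of 35 (77.1%) against 41.1% of all, both motifs in 21 (60%) against 7.97%, and neither in 5 (14.3%) against 47.7%. The motifs were searched separately, so a match to one could overlap a match to the other. The 150 bases before the start are shown for 7 members that the results turn on, with matches to either motif in capitals. Ube2c, Cdk1 and Kif11 hold both motifs, and Ube2c and Kif11 rose with Plk1 while Cdk1 did not pass that test. Mki67 and Cdc20 lay on opposite sides of the genotype comparison, Pttg1 has no match in this window, and Zwint has a CCAAT box only. The Pttg1 window precedes a RefSeq start but lies inside the gene in the GENCODE annotation (chr11:43420250-43426251, minus strand). It therefore does not show the promoter at the GENCODE start, and motifs there were not searched. The regions are Ube2c chr2:164769779-164769928 on the plus strand, Cdk1 chr10:69352913-69353062 on the minus strand, Kif11 chr19:37376232-37376381 on the plus strand, Mki67 chr7:135716380-135716529 on the minus strand, Cdc20 chr4:118437344-118437493 on the minus strand, Pttg1 chr11:43425982-43426131 on the minus strand and Zwint chr10:72654696-72654845 on the plus strand.
Ube2c: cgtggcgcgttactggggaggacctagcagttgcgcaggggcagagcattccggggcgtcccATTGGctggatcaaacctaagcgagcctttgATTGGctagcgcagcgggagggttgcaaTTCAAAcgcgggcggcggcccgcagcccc
Cdk1: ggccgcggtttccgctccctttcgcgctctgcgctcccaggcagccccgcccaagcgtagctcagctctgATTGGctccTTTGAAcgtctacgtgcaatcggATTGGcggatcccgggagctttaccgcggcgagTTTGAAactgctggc
Kif11: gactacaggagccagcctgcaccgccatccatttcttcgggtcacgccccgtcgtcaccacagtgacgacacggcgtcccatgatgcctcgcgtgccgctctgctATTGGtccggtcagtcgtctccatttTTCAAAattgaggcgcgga
Mki67: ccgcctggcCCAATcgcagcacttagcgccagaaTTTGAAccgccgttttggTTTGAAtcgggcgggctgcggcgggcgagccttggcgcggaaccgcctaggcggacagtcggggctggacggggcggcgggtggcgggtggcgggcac
Cdc20: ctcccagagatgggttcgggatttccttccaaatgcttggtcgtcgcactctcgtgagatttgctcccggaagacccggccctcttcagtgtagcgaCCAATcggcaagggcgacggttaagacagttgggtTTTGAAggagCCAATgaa
Pttg1: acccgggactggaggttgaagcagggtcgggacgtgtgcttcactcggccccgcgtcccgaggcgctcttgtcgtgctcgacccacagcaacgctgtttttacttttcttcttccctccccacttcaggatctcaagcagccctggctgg
Zwint: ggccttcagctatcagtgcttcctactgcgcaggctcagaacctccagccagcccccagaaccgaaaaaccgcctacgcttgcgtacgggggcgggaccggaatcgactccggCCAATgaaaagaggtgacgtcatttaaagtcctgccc
A match to these letters is a description of the sequence, and binding was not measured. Promoters of Tpx2, Spc24, Cdc25c, Incenp, Bora, Kif20a, Ccna2 and Aurkb were not analysed here.

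The first question was whether the loss of Plk2 changed Plk1 or the mitotic genes. Plk2, the deleted gene, ranged from 36.6 to 553 (median, 284) in the 28 Plk2-null tumors and from 186 to 8028 (median, 3402) in the 13 p53-null tumors. In 12 of the 13 p53-null tumors it was above every Plk2-null tumor, and the exception was the library labelled p53null-7435. The difference in mean log2(value + 1) was -3.39 (SE, 0.377; limma adjusted p = 1.30e-09). Plk1 (chr7:122159439-122169873, plus strand) ranged from 822 to 2098 (median, 1254) in Plk2-null tumors and from 470 to 3595 (median, 1105) in p53-null tumors. The Plk2-null range lay inside the p53-null range, with a mean log2 level of 10.38 ± 0.38 (SD, n = 28) against 10.26 ± 0.88 (SD, n = 13). The difference in Plk1 was 0.12 on the log2 scale (SE, 0.195; 95% interval, -0.27 to 0.50; 2-sided permutation p = 0.553), which did not pass the test.

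Between the genotypes 8 of the 43 members passed the threshold (18.6%), beside 39.5% of all 17208 genes tested by limma with Benjamini-Hochberg adjustment. Of the members, 4 were higher in Plk2-null tumors (24.3% of all genes) and 4 lower (15.3% of all genes). The median difference over the 43 was 0.01 on the log2 scale, against 0.10 over all genes, and 23 of the 43 were above 0. No member separated the groups without overlap, a count not made over all genes. With median-of-ratios factors the all-gene median moved from 0.10 to -0.02, and the split of members was 2 higher and 8 lower, beside 40.0% of all genes called. The plot of called members by tumor shows the spread.

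**Figure D1:**
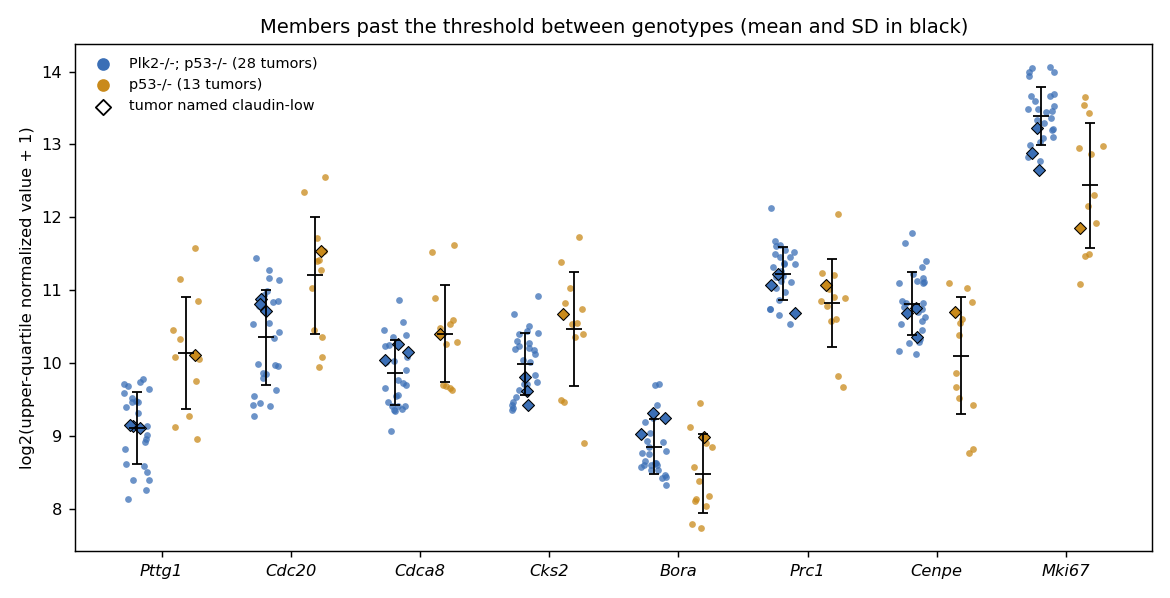
Log2(value + 1) of the 8 members that passed the threshold between genotypes, for each of 28 Plk2-null and 13 p53-null tumors, with diamonds for tumors named claudin-low and black bars for the mean and SD. Pttg1, Cdc20, Cdca8 and Cks2 lie lower in the Plk2-null tumors and Bora, Prc1, Cenpe and Mki67 higher, and the groups overlap for every gene.

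The regulators of anaphase held the largest fall. Pttg1 encodes securin, which holds separase inactive until chromosomes are aligned. It ranged from 280 to 876 (median, 562) in Plk2-null tumors and from 494 to 3052 (median, 1097) in p53-null tumors. Of the 13 p53-null tumors 9 were above every Plk2-null tumor, and 9 Plk2-null tumors were below every p53-null tumor. The log2 difference was -1.03 (SE, 0.197; limma adjusted p = 4.93e-05), and it kept its call under the alternatives run except for the 7 named primary tumors corrected for length and GC content (adjusted p = 0.0521). Cdc20, the activator of the anaphase-promoting complex that marks securin for destruction, ranged from 620 to 2770 (median, 1428) and from 988 to 5985 (median, 2700) in the same order of groups. Its difference was -0.85 (SE, 0.234; limma adjusted p = 0.00331), but with the 7 named primary tumors alone the adjusted p was 0.104. In that smaller comparison 2 members passed, Pttg1 and Mki67, beside 17.3% of all genes. Separase itself (Espl1, 0.24, adjusted p = 0.421) and the ubiquitin-conjugating enzyme Ube2c (-0.29, adjusted p = 0.358) did not pass the threshold.

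Among markers of dividing cells Mki67 rose most. It encodes the Ki-67 antigen of the surface of mitotic chromosomes, and ranged from 6425 to 17118 (median, 10856) in Plk2-null tumors against 2175 to 12858 (median, 5042) in p53-null tumors. All 28 Plk2-null tumors were above the p53-null median, and 7 of the 13 p53-null tumors lay below every Plk2-null tumor. The difference was 0.95 (SE, 0.194; limma adjusted p = 0.000116), and fell to 0.39 with a correction for transcript length (adjusted p = 0.151). Top2a, the topoisomerase that untangles sister chromatids, was 0.36 higher and lay just outside the threshold (adjusted p = 0.0548).

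At the kinetochore 1 of 9 members passed, beside the 39.5% of all genes. Cenpe, a motor that carries chromosomes to the spindle equator, ranged from 1115 to 3515 (median, 1733) in Plk2-null tumors and from 435 to 2182 (median, 1331) in p53-null tumors. Its difference was 0.72 (SE, 0.192; limma adjusted p = 0.00263) and fell to 0.24 with the length correction (adjusted p = 0.413). The other 8 lay between -0.45 for Spc25, a subunit of the Ndc80 complex, and 0.40 for Cenpf. None of the 5 spindle checkpoint genes (Bub1, Bub1b, Bub3, Mad2l1 and Ttk), whose products delay anaphase, passed the threshold that 39.5% of all genes passed, with differences from -0.25 to 0.28 (limma adjusted p from 0.112 to 0.949).

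In the chromosomal passenger complex, which corrects wrong attachments, Cdca8 (borealin) ranged from 538 to 1866 (median, 914) in Plk2-null tumors and from 790 to 3162 (median, 1343) in p53-null tumors. It was lower by a log2 difference of -0.53 (SE, 0.177; limma adjusted p = 0.0143), whereas Aurkb, Incenp and Birc5 lay between -0.01 and 0.11 and did not pass. Of the 6 genes of the cyclin B and Cdk1 group only Cks2 passed, a small Cdk-binding protein with 654 to 1945 (median, 1040) against 476 to 3393 (median, 1493). Its difference of -0.48 (SE, 0.190; limma adjusted p = 0.0395) was lost without p53null-7435 (adjusted p = 0.0594). Over 18 alternatives Cks2 lost its call in 7, with a smallest difference of -0.20 and a highest limma adjusted p of 0.784. Cdca8 lost its call in 3 of 18, with a smallest difference of -0.35 and a highest limma adjusted p of 0.563. Ccnb1 (-0.23), Ccnb2 (-0.25), Ccna2 (0.04), Cdk1 (0.16) and Cdc25c (-0.21) had adjusted p-values from 0.257 to 0.899.

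Among the partners of Plk1, Bora ranged from 319 to 835 (median, 431) in Plk2-null tumors and from 213 to 699 (median, 331) in p53-null tumors. The difference of 0.37 (SE, 0.149; limma adjusted p = 0.0427) was lost under either other scaling (0.26 and 0.32, adjusted p = 0.150 and 0.0912), with a GC or length correction, and without PLK2null-7748 (adjusted p = 0.0551). Prc1, the microtubule bundler that docks Plk1 at the midzone, ranged from 1487 to 4481 (median, 2426) against 816 to 4211 (median, 1899). Its difference of 0.41 (SE, 0.154; limma adjusted p = 0.0326) was lost under the same scalings (0.29 and 0.36, adjusted p = 0.130 and 0.0596) and corrections. Aurka, the kinase that phosphorylates Plk1, was at -0.50 (adjusted p = 0.0870), and its activator Tpx2 at 0.18 (adjusted p = 0.518). The cytokinesis regulators Ect2 (0.02) and Racgap1 (-0.17), and the midzone motor Kif20a (0.31) did not pass either.

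The direction of a member's difference followed the length of its transcript. Across the 43 members the log2 difference correlated with the log2 length of the longest annotated transcript at Pearson r = 0.72 and Spearman coefficient = 0.71, as a description across genes, which are not independent replicates. Over the 16635 tested genes with a length the values were 0.25 and 0.32. The 14 shortest members (692 to 2405 bases) had a median difference of -0.32, with 4 called lower and none called higher. The 15 of middle length (2489 to 3421 bases) had a median of 0.04 with 2 called higher, and the 14 longest (3668 to 11130 bases) had 0.26 with 2 called higher. Libraries differed in the same property, since the slope of all genes on log2 length was 0.067 ± 0.045 (SD, n = 28) in Plk2-null libraries and -0.145 ± 0.103 (SD, n = 13) in p53-null libraries. The slope per 10 percentage points of GC content was -0.105 ± 0.074 (SD, n = 28) and 0.226 ± 0.143 (SD, n = 13). With each tumor's length trend removed, 5 members passed, all lower (Pttg1, Cdc20, Melk, Cdca8 and Bub3), beside 33.5% of all genes. With length and GC removed Pttg1, Cdc20, Melk and Bub3 passed, beside 33.8% of all genes. In the 7 named primary tumors with both removed no member passed by limma, beside 9.98% of all genes, and 2 had an unadjusted p under 0.05.

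**Figure D2:**
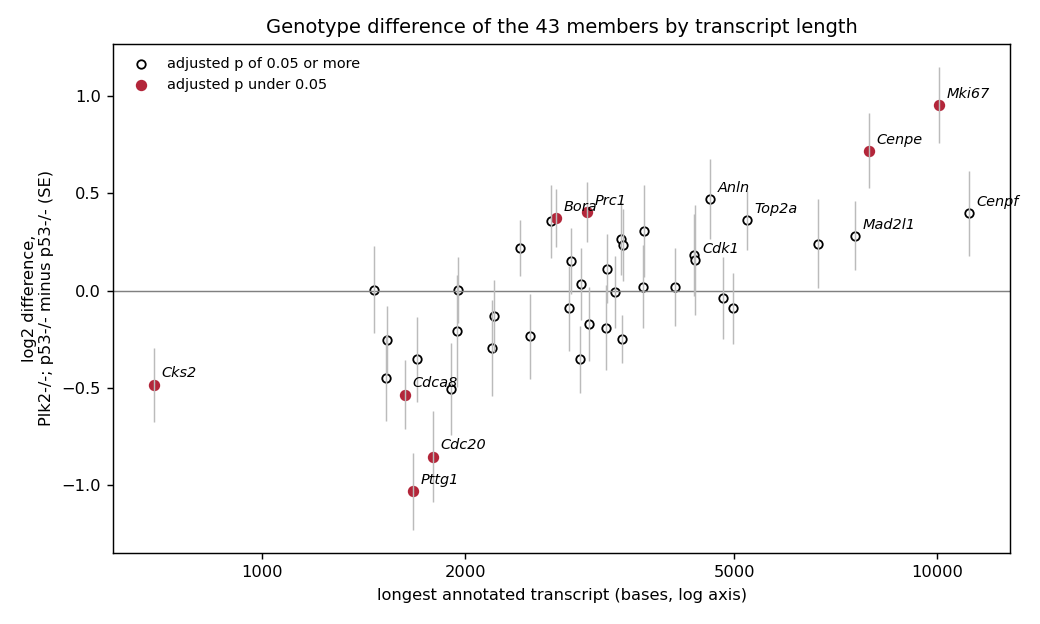
Log2 difference between Plk2-null and p53-null tumors (with SE) for the 43 members against the length of the longest annotated transcript in bases on a log axis, with filled points past the adjusted p of 0.05. Short transcripts lie mostly below 0, at a median of -0.32, and long ones mostly above, at a median of 0.26.

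For wider mitosis, 109 further mitotic genes were counted, of which 24 were higher and 18 lower in Plk2-null tumors (38.5%, beside 39.5% of all genes). Of 50 genes of DNA replication, which precede mitosis, 6 were higher and 4 lower (20%). The share of members past the threshold was thus below the share of all genes, and that of the 109 near it.

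The spread between tumors was described without a test. The SD of log2 values was larger in the p53-null tumors for 40 of the 43 members (93.0%), compared with 61.6% of all genes. The median SD over members was 0.478 in Plk2-null and 0.766 in p53-null tumors, and it was 0.458 in the 7 named primary Plk2-null tumors. The mean of the 43 members relative to each gene's median over the 41 tumors was -0.018 ± 0.344 (SD, n = 28) in Plk2-null and -0.013 ± 0.630 (SD, n = 13) in p53-null tumors. It was lowest in p53null-10152 (-1.06), where 1 of the 43 members was above its median. It was highest in p53null-2225L (0.820) and p53null-2153L (0.813), where 37 and 41 members were above it. Within the Plk2-null group it ran from -0.738 in PLK2null-1989 to 0.694 in PLK2null-7748, a range inside that of the p53-null tumors.

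The next question was how closely the 43 genes moved with Plk1 from tumor to tumor. With genotype as a term, the log2 level of 39 members rose with the log2 level of Plk1 (90.7%), while 4.47% of all 17207 genes passed in either direction 3.27% rose and 1.2% fell. All 43 slopes were above 0, with a median of 0.67 log2 units per log2 unit of Plk1, against -0.02 over all genes. Of the 109 other mitotic genes 63 rose (57.8%) and of the 50 replication genes 33 rose (66%), and no gene of the 3 lists fell. Plk1 sets the x axis here and measurement error of a tumor's scaling is shared by all its genes. The correlation of Plk1 with a tumor's length slope was r = -0.21 (permutation p = 0.282) in the 28 and -0.34 (permutation p = 0.254) in the 13 tumors.

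**Figure D3:**
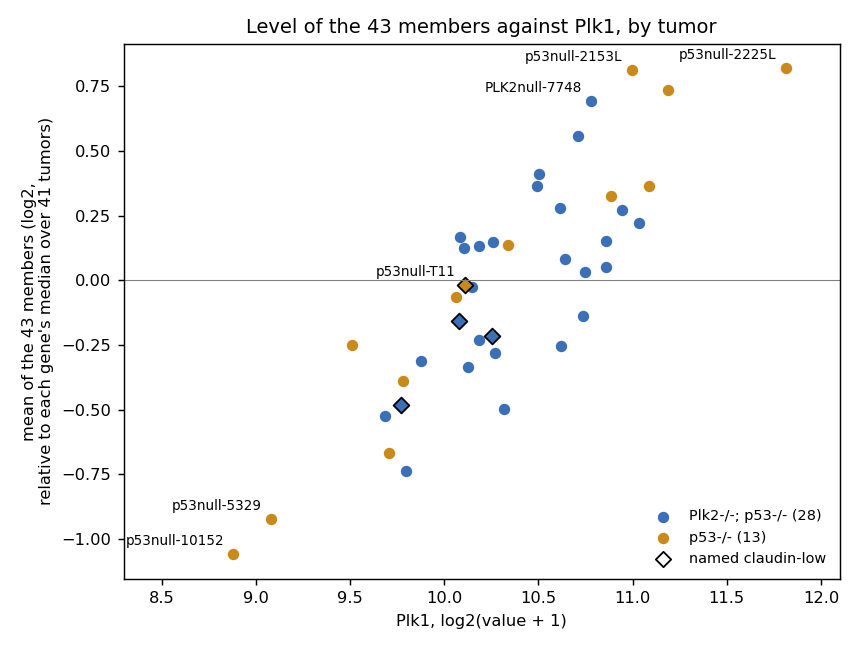
Mean of the 43 members, in log2 relative to each gene's median over 41 tumors, against Plk1 as log2(value + 1), with 1 point per tumor and diamonds for tumors named claudin-low. The p53-null tumors run from -1.06 in p53null-10152 to 0.820 in p53null-2225L, with Plk1 at 470 and 3595, and the Plk2-null tumors lie inside this range.

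The 5 members with the highest correlation were Tpx2, Ube2c, Ccna2, Aurka and Incenp. Tpx2, which targets Aurora A to spindle microtubules, had the highest within-genotype correlation of all genes (r = 0.897). Its slope was 0.97 (SE, 0.083; limma adjusted p = 3.02e-10). Ube2c, which charges the anaphase-promoting complex with ubiquitin, was the next gene of all (r = 0.853; slope, 1.08; SE, 0.110; limma adjusted p = 2.86e-08). Ccna2, cyclin A, had r = 0.836 and a slope of 0.78 (SE, 0.088; limma adjusted p = 2.24e-07). Aurka had r = 0.827 and a slope of 1.01 (SE, 0.113; limma adjusted p = 2.24e-07). Incenp, the scaffold of the passenger complex, had r = 0.826 and a slope of 0.74 (SE, 0.087; limma adjusted p = 3.82e-07). Members filled 5 of the first 10 places among all genes, 9 of the first 20 and 20 of the first 100.

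The other genes of the first 10 by this measure, which are no members, were Rrm1 (r = 0.834), Gm14276 (0.832), Knstrn (0.828), Arhgap11a (0.825) and Cep55 (0.814). Rrm1 is the large subunit of ribonucleotide reductase, which makes the building blocks of DNA, and Knstrn and Cep55 act at the kinetochore and the midbody.

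Proteins that bind or act with Plk1 at kinetochores and the midzone had slopes from 0.54 to 0.88. Bub1b, the checkpoint kinase-like protein BubR1, had 0.88 (SE, 0.107) and Bub1 0.72 (SE, 0.102), each with limma adjusted p under 0.05. Kif20a had 0.84 (SE, 0.144), Racgap1 0.76 (SE, 0.099), Ect2 0.55 (SE, 0.143) and Prc1 0.54 (SE, 0.094), and all 4 passed. At entry, Ccnb1 had 0.76 (SE, 0.135) and Cdc25c, the phosphatase that activates Cdk1, 0.74 (SE, 0.206), while Cdc20 at exit had 0.65 (SE, 0.165). These 3 passed as well. The members that did not pass were Cdk1 (0.59, limma adjusted p = 0.109), Bora (0.31, 0.110), Anln (0.36, 0.210) and Zwint (0.13, 0.708). Anln encodes anillin of the contractile ring and Zwint a kinetochore adaptor for the RZZ complex. With a length correction 41 members passed, beside 9.41% of all genes. Bora (slope, 0.37; adjusted p = 0.0198) and Anln (slope, 0.51; adjusted p = 0.0232) were the members gained, and both also passed with a GC correction (adjusted p = 0.0175 and 0.0284).

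The correlation was tested within each genotype as well, for 43 relations in each. In the 28 Plk2-null tumors the median r was 0.485, and 21 of 43 members had r above 0.5, as had 1.3% of all genes. In the 13 p53-null tumors the median was 0.853 and 42 of 43 were above 0.5, as were 10.9% of all genes. The p53-null value was the higher in 42 of 43 members, with Prc1 the exception (0.744 in the 28 and 0.683 in the 13). This count was not made over all genes. A value of r also depends on the spread of Plk1, whose SD was 0.38 in the 28 and 0.88 in the 13 tumors. How much of the gap in r goes with that spread was not tested. Slopes differed less, with a median difference of -0.05 over members (Plk2-null minus p53-null) and 15 of 43 above 0. Without the 2 tumors farthest from the median of Plk1 in each genotype, the medians were 0.485 in 26 and 0.826 in 11 tumors. In single-genotype fits 6 members passed in the Plk2-null tumors, beside 0.0758% of all genes, and 22 in the p53-null tumors, beside 0.504% of all genes. The test of the difference in slope called none of 17207 genes by limma (1085 had an unadjusted p under 0.05, with 1091 and 1076 in the trend and robust versions, which also called none). For members the smallest adjusted p was 0.753, so a difference between genotypes was not shown for any of them.

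Tpx2 shows the relation in both genotypes. In the Plk2-null tumors its r was 0.831 (permutation p = 1e-05, the smallest 100000 resamples give), the Spearman coefficient was 0.834, and r was 0.794 without the 2 farthest tumors. In the p53-null tumors r was 0.960 and Spearman 0.945 (permutation p = 1e-05 each), and r was 0.926 without the 2 farthest. Ube2c had r = 0.758 (permutation p = 1e-05) and Spearman = 0.774 in the Plk2-null and r = 0.918 (permutation p = 3e-05) and Spearman = 0.890 in the p53-null tumors. Aurka had r = 0.697 (permutation p = 5e-05) and Spearman = 0.691 in the Plk2-null and r = 0.912 (permutation p = 3e-05) and Spearman = 0.901 in the p53-null tumors. Ccna2 and Incenp had r = 0.689 and 0.737 in the Plk2-null and 0.907 and 0.868 in the p53-null tumors. Without the 2 farthest tumors these 4 genes lay between 0.674 (Ccna2) and 0.738 (Ube2c) in the Plk2-null and between 0.831 (Aurka) and 0.882 (Ccna2) in the p53-null tumors. Permutation p-values here are unadjusted.

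Pttg1 had the largest contrast. Its r was -0.03 in the Plk2-null tumors (permutation p = 0.881; Spearman, -0.04, permutation p = 0.837) and 0.80 in the p53-null tumors (permutation p = 0.00082; Spearman, 0.72, permutation p = 0.0071). Without the 2 farthest tumors it was 0.01 and 0.73. The difference in its slope was -0.74 (SE, 0.299; unadjusted limma p = 0.0185, adjusted p = 0.753) and that of Cenpa, the centromeric histone, -0.68 (SE, 0.282; unadjusted limma p = 0.0201, adjusted p = 0.753). Zwint was low in both genotypes, with r = 0.123 (permutation p = 0.538; Spearman, 0.239) and 0.156 (permutation p = 0.613; Spearman, 0.148). Anln had r = 0.092 (permutation p = 0.638) in the Plk2-null and 0.640 (permutation p = 0.0174) in the p53-null tumors. Bora had 0.198 (permutation p = 0.312) and 0.582 (permutation p = 0.0382). Without the 2 farthest tumors Zwint was at 0.180 and -0.04, Anln at 0.097 and 0.758, and Bora at 0.251 and 0.651, so the low values of Zwint in both genotypes did not rest on those tumors. Of the members whose promoters are printed above, Ube2c with both motifs headed this order. Pttg1 and Zwint, without TTTGAA in the window, were near its end, but Cdk1 with 2 matches to each motif was there too. Bub1, Ccnb1, Cenpe, Cks2 and Nek2 had a CCAAT box but no TTTGAA match from 250 bases before to 50 after the start. Their slopes on Plk1 were 0.65 to 0.76, and all passed. Birc5, Mad2l1, Melk and Nuf2 had neither motif there. Their slopes were lower, at 0.47 to 0.62, and all passed too. Whether a motif goes with the order was not tested.

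**Figure D4:**
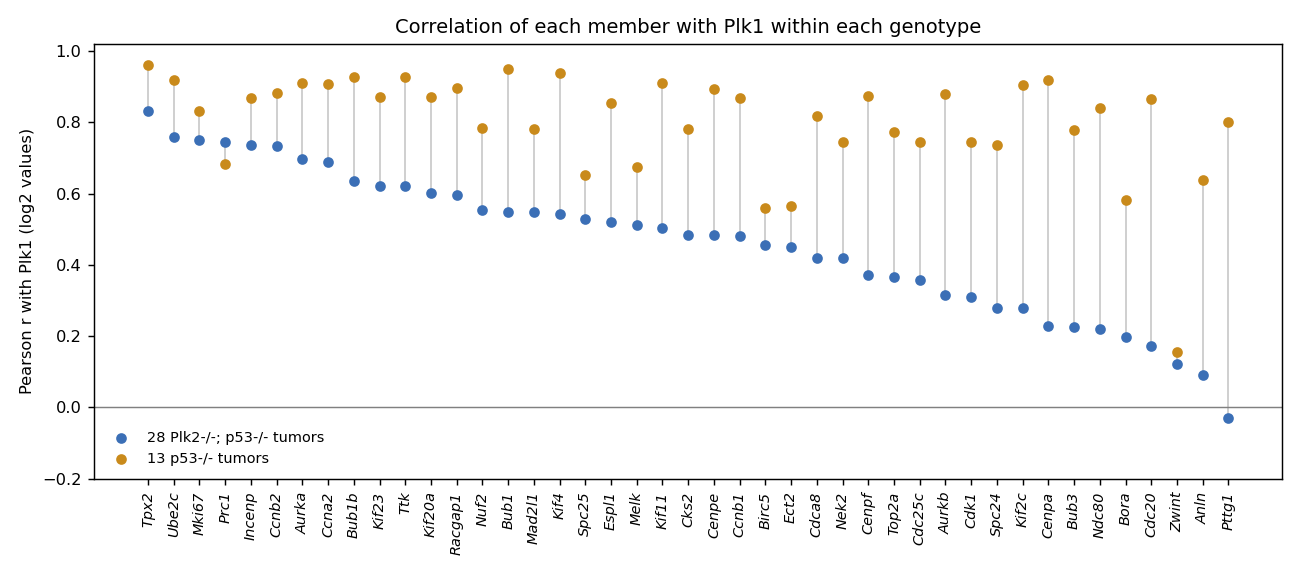
Pearson r of each of the 43 members with Plk1, on log2 values, in the 28 Plk2-null and in the 13 p53-null tumors, ordered by the Plk2-null value. The p53-null value is the higher for 42 of the 43, and Pttg1 has the widest gap, from -0.03 to 0.80. The SD of Plk1, on which r also depends, was 0.38 in the Plk2-null and 0.88 in the p53-null tumors.

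Members also correlated with one another. Over the 903 pairs the median r was 0.54 in the 28 Plk2-null tumors, with 80 pairs below 0, and 0.73 in the 13 p53-null tumors, with 8 below 0. In the Plk2-null tumors Pttg1 was least like the others (median r with the other 42, -0.12) and Ccnb1 most like them (0.69). In the p53-null tumors Zwint was least like them (0.16) and Cenpa most (0.86).

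A single tumor set the upper end of Cdk1. PLK2null-7748 had a Cdk1 value of 35874, which was 16.8 times the median of the other 27 Plk2-null tumors (2136; range, 1172 to 6559), and the highest p53-null value was 4039. Cdk1 lies on chromosome 10, and the 14 tested genes from 3 Mb before to 1 Mb after its start, without Cdk1 itself, were all more than 1 log2 unit above the median of the other 27 tumors in this library, by a median of 2.12. This window was chosen after the values were seen. Over all genes the same median was 0.11 and 15% were past 1. Farther out it was 0.58 for the 51 genes from 10 to 3 Mb before and 0.43 for the 70 genes from 1 to 10 Mb after. Within the window Ank3 was at 12998 (median of the other 27, 998), Ado at 13026 (951) and Rtkn2 at 1639 (37.6). This library was the highest of the 28 for 6 of the 14 genes (42.9%), beside 9.44% of all genes. For the rest another Plk2-null tumor was higher, as for Jmjd1c (9218 here, up to 42871 in the other 27) and Reep3 (9281 and 18850). DNA copy number was not measured here. Without this tumor, r between Cdk1 and Plk1 in the Plk2-null group was 0.25 in place of 0.31 (Spearman, 0.44 in place of 0.47).

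The last question was where the tumors named claudin-low stood. In PLK2null-732, PLK2null-733 and PLK2null-743, Plk1 was at 1220, 1079 and 873, inside the range of the other 25 Plk2-null tumors (822 to 2098), and T11 had 1105. The log2 difference was -0.39 (2-sided exact permutation p = 0.0968 over 3276 splits; limma adjusted p = 0.189). Of the 43 members 9 were lower and 2 higher in the 3 tumors (25.6%), beside 37.3% of all 17153 genes tested by limma (17.1% lower and 20.2% higher). The median difference of members was -0.31 against 0.02 over all genes. Of the 109 other mitotic genes 22 were lower and 9 higher, with a median of -0.18, and of the 50 replication genes 3 were lower and 5 higher, with a median of 0.15. The count of 11 members fell to 6 without PLK2null-732 (26.4% of all genes called), to 6 without PLK2null-733 (26.4%) and to 4 without PLK2null-743 (27%), so calls fell over all genes too. It was 6 with T11 added to the 3 and genotype as a covariate (31.3% of all genes called), and 11 without PLK2null-7763, the other tumor with a high endothelial sum (38.5%).

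**Figure D5:**
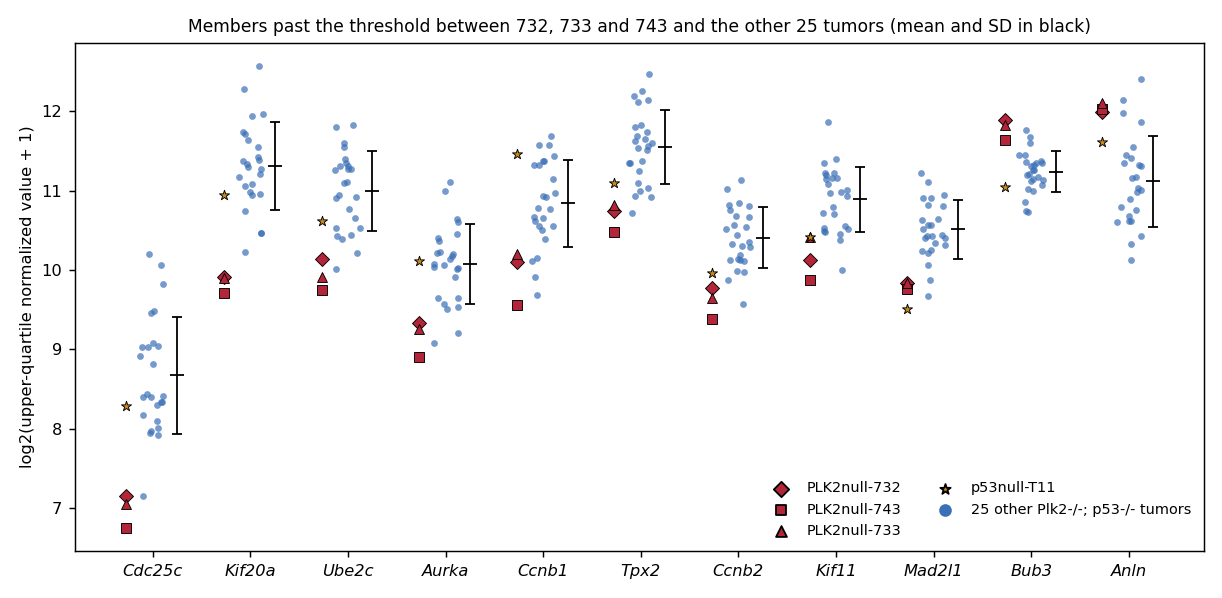
Log2(value + 1) of the 11 members that passed the threshold between PLK2null-732, PLK2null-733 and PLK2null-743 and the other 25 Plk2-null tumors, with black bars for the mean and SD. The 9 lower members run from Cdc25c at -1.69 to Mad2l1 at -0.70, and Bub3 and Anln are the higher ones.

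Kif20a, the midzone motor that Plk1 binds, was at 964, 953 and 833 in the 3 tumors and at 1197 to 6096 (median, 2516) in the other 25. It was the only member with all 3 below all 25, a count not made over all genes, and T11 had 1968. The difference was -1.47 (SE, 0.323; limma adjusted p = 0.000605). Cdc25c was at 141, 132 and 107 against 141 to 1176 (median, 339), and T11 had 312 (difference, -1.69; SE, 0.426; limma adjusted p = 0.00241). Ube2c was at 1129, 966 and 856 against 1031 to 3634 (median, 2187), with T11 at 1571 (difference, -1.06; SE, 0.294; limma adjusted p = 0.00527). These 3 kept their call without any of the 3 tumors and with T11 added to the group.

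The other 6 lower members came from the cyclin B and Cdk1 group, spindle assembly and the checkpoint. Ccnb2, a mitotic cyclin, was at 874, 801 and 666 against 762 to 2243 (difference, -0.81; limma adjusted p = 0.00691), and lost its call without PLK2null-743. Ccnb1 was at 1096, 1176 and 751 against 824 to 3296 (difference, -0.89; limma adjusted p = 0.0308), and T11 stood above the median of the 25 (1756) at 2815. Tpx2 was at 1719, 1801 and 1432 against 1686 to 5674 (difference, -0.87; limma adjusted p = 0.0135). Aurka was at 642, 608 and 477 against 538 to 2215 (difference, -0.91; limma adjusted p = 0.0157), and T11 had 1111. The spindle motor Kif11, which pushes the poles apart, was at 1116, 1361 and 935 against 1026 to 3718 (difference, -0.76; limma adjusted p = 0.0170). Mad2l1, the checkpoint protein that binds Cdc20, was at 916, 913 and 868 against 814 to 2398 (difference, -0.70; limma adjusted p = 0.0144). For Mad2l1 T11 had 725, below all 28 Plk2-null tumors. For Kif11 it had 1362, level with PLK2null-733, and it had 999 for Ccnb2 and 2182 for Tpx2. Ccnb1, Tpx2, Aurka, Kif11 and Mad2l1 each lost the call without at least 1 of the 3 tumors.

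Against this direction Bub3, a WD-repeat protein of the checkpoint, was at 3808, 3628 and 3200 against 1700 to 3467 (difference, 0.55; SE, 0.167; limma adjusted p = 0.0100), and T11 was at 2111. Anln was at 4076, 4399 and 4189 against 1116 to 5441 (difference, 0.92; SE, 0.334; limma adjusted p = 0.030), and T11 was at 3144. Both lost the call under quantile normalization (adjusted p = 0.0653 and 0.0664). Bub3 also lost it without PLK2null-732 (adjusted p = 0.0722), without PLK2null-733 (0.0546) and with T11 in the group (0.27; adjusted p = 0.294). Anln lost it without any of the 3 tumors (adjusted p from 0.0884 to 0.109). None of the 9 kinetochore genes or the 4 passenger complex genes passed the threshold in this comparison, beside the 37.3% of all genes, with differences from -0.61 to 0.62 and from -0.49 to 0.32.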

How the data were processed

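RNA of 28 Plk2-null and 13 p53-null tumors was analysed from a gene table of the whole series. Paired reads were mapped by the authors with STAR (version 2.7.6a) to the mm10 build and genes quantified with Salmon (1.4.0), with Picard (2.22.4) also listed, the versions as the submitters' processing notes name them, and the authors deposited upper-quartile normalized values, a linear signal per gene and tumor. Low values lay within 0.1 read of whole multiples of 1 read for 83.6 to 86.4%, so reads were not recovered and depth is implied only. The limit of 3 reads covers counting error only. No duplicate library was found.

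Genotypes came from the labels, and the claudin-low and primary names from the study. Genes with a mean of at least 10 were tested by limma (3.58.1, under R 4.3.3) as log2(value + 1), with Benjamini-Hochberg adjustment at 0.05 over all genes, a scale that understates changes of low genes. Permutation tests were 2-sided (Python 3.11.15). Transcript length and GC content came from GENCODE annotation of GRCm38, and trends on them were removed per tumor as alternatives. The text names Plk1, Plk2, called members between genotypes, the 10 largest claudin-low differences, the 5 highest and lowest correlations with Plk1, its partners, and the 5 other genes most like it. Members, lists (109 mitotic, 50 replication, 54 cell type marker genes) and tests were chosen with earlier results of these data known. Scripts were tested on simulated data.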

Additional observations from a re-analysis of the deposited data

Results flagged for a closer look

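Among the 7 Plk2-null tumors named as primary, 4 of 44 genes tested (the members and Plk1) had a tumor farther from the others than Dixon's 95% criterion for 7 samples allows, where chance gives about 1 in 20. Cdk1 in PLK2null-7748 was at 35874 with the nearest tumor at 2984. In PLK2null-7753, Nek2, a centrosome kinase, was at 655 with the nearest at 802. In the same tumor Birc5, the survivin subunit of the passenger complex, was at 4175 with the nearest at 1830. Cenpf, a kinetochore protein, was at 1320 there, with the nearest at 1881.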

How the results depend on the processing

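Of the summary values recomputed under the alternatives, 88 kept their reading, while 10 counts of members fell and 1 rose by more than 1.5 times. The limit of 1.5 times holds for counts of members only, and not all of the 88 are such counts. The 88 also include counts for the difference in slope, which were 0 in every fit and could not fall. The 88 are therefore no measure of how firmly the results hold. Of 8 members called between genotypes, the count became 5 with a length correction, 4 with length and GC corrections, 2 with only the 7 named primary Plk2-null tumors (beside 17.3% of all genes), 0 with those tumors and both corrections (2 members had an unadjusted p under 0.05 by limma), and 14 with Plk1 as a covariate (beside 40.8% of all genes). Of 11 members called in the claudin-low comparison, leaving out each of the 3 tumors gave 4 to 6, and 4 tumors with T11 against 37, with genotype as a covariate, gave 6. Calls over all genes fell in these fits as well, from 6391 to 4527, 4528 and 4629, and to 5392 with T11. The 39 members whose slope on Plk1 passed became 6 in the 28 Plk2-null and 22 in the 13 p53-null tumors. The slope of Pttg1 reversed to -0.0381 in the 28 Plk2-null tumors (adjusted p = 0.959). Corrections for length and GC, the Plk1 covariate and the fits without PLK2null-7748 were added after the data were seen. The cause of these changes was not tested, except that fits within 1 genotype or with 7 primary tumors hold fewer samples. No paired analysis was possible because replicate numbers were given in accession order only and pair no tumors. Depth did not limit the members, whose lowest value was 188 reads.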
